A study of Mus musculus with 8 samples.

Results

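Genes of the synaptic vesicle release machinery were compared between the cortex of bigenic mice expressing ΔNLS-hTDP-43 and that of nontransgenic mice. Members were chosen by symbol from the results table of 10601 genes: the synaptotagmins, synapsins 1 to 3, syntaxins, syntaxin binding proteins, Snap and Vamp genes, complexins other than complexin 3, Rims genes, SV2 and synaptogyrin genes, Unc13b and Unc13c, and Syp, Bsn, Pclo, Rph3a, Nsf, Napa, Napb, Erc1, Erc2, Amph, Dnm1, Synj1, Sh3gl2, Doc2b, Cadps and Cadps2. The rule found 77 genes, and all 77 were among the 10588 genes tested.

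A synaptic vesicle fuses with the presynaptic membrane when the SNARE proteins of the vesicle (synaptobrevins, the Vamp genes) and of the plasma membrane (syntaxin and SNAP-25) zip into a bundle. Munc13 and syntaxin-binding proteins prepare this bundle, complexins clamp it, synaptotagmins trigger fusion when calcium enters, and NSF with its SNAP adaptors takes the spent bundle apart. Active zone scaffolds hold vesicles beside calcium channels, synapsins hold the reserve of vesicles together, and dynamin, amphiphysin and synaptojanin take membrane back by endocytosis. Several of these proteins come in sets of close relatives (paralogues) that differ between neuron types.

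Bigenic mice carried Camk2a-tTa, in which the Camk2α promoter drives the tetracycline transactivator mainly in excitatory forebrain neurons, together with a tetracycline-responsive human TDP-43 whose nuclear localization signal is mutated. Nontransgenic mice carried neither transgene. Both groups were C57BL/6, had doxycycline in their diet up to day 28 of life and then spent 10 days without it, so the diet is shared and the genotype is not. RNA from the right cortex of 4 mice per genotype, 3 of the 4 male in each, was selected for poly(A) and sequenced. The controls lack the transactivator as well as the human TDP-43, so effects of these transgenes cannot be told apart.

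Values are the normalized counts that the authors deposited, and mice are numbered here within a genotype by the order of their columns. From the step between possible values, about 10.6 M to 31.9 M reads per bigenic mouse and 20.4 M to 29.0 M per nontransgenic mouse lay on genes, with the fewest in the second bigenic mouse, so that 3 reads were worth 1.94 to 6.20 normalized counts. Endogenous Tardbp, which the human protein is known to repress, lay between 4908 and 5502 in bigenic mice and between 6116 and 7116 in nontransgenic mice, without overlap. Glutamatergic neuron markers were present in every mouse, with Slc17a7, the main cortical vesicular glutamate transporter, between 11805 and 17831. The second bigenic mouse stood apart from the other bigenic mice in many of the genes below, and counts of release genes are therefore given with and without it. That mouse was singled out by its values in these same data. Fold changes, p-values and calls without it are therefore a description and give no support of their own.

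Release genes changed in both directions. With limma and an adjusted p-value threshold of 0.05, 22 of the 77 genes were significantly downregulated and 14 significantly upregulated in bigenic mice, and 41 did not pass. The 36 genes that passed are 46.8% of the 77, against 35.9% of all genes tested, among which 15.4% were lower and 20.5% higher. The median log2(fold change) over the 77 genes was −0.05, against 0.03 over all genes tested, with 43 genes below 0 and 34 above. Without the second bigenic mouse 30 genes were lower and 14 higher, with a median of −0.07, while 45.6% of all genes then passed (20.3% lower and 25.3% higher).

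The extremes were far larger than the median. Syt10, Doc2b, Stxbp6, Syt17 and Erc2 each fell by more than 50% in bigenic mice, by 76.3%, 65.2%, 62.2%, 54.8% and 51.1% in that order. Of these, Syt10 reached the level needed for testing (10 RPM) only in nontransgenic mice. Napa, Rims3, Syt14, Vamp7, Syt5 and Cplx1 showed the largest rises, of between 64.6% and 77.6%. Of the 77 genes, 23 were lower and 14 higher in every bigenic mouse than in every nontransgenic mouse, which happened in 16.7% and 22.3% of all genes tested (39.0% together). Without the second bigenic mouse these counts were 33 and 14, and 48.6% of all genes were then separate. In bulk tissue, fewer cells of a type and less RNA per cell cannot be told apart.

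**Figure D1:**
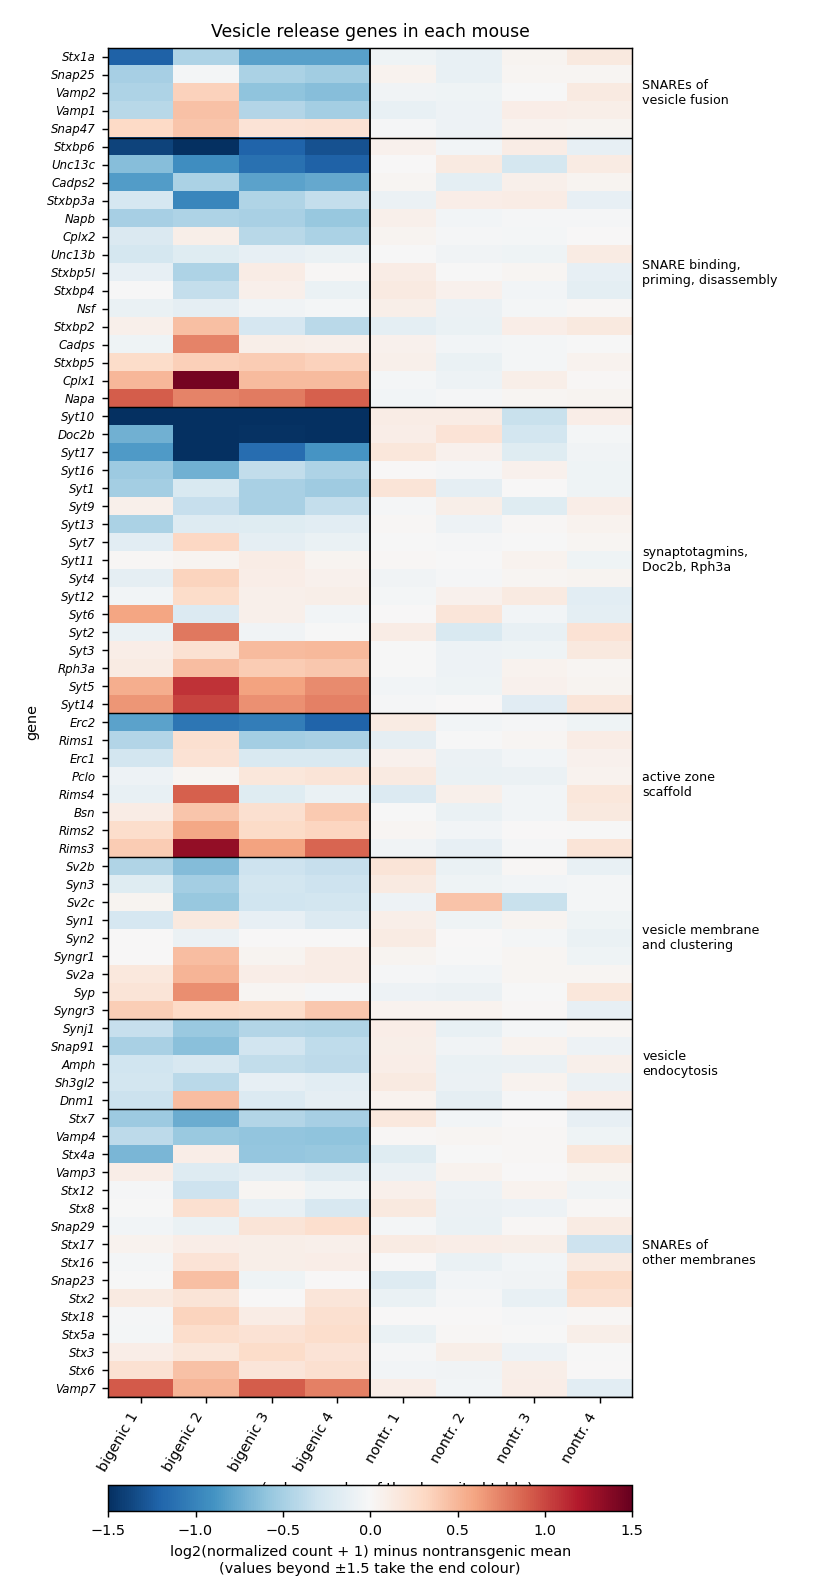
Each row is 1 of 75 release genes, grouped by role, and each column a mouse; colour gives log2(normalized count + 1) minus the mean of the 4 nontransgenic mice, blue for lower and red for higher, with values beyond ±1.5 at the end colour. Syt10, Doc2b, Stxbp6, Syt17 and Erc2 are blue and Napa, Vamp7, Syt14 and Syt5 red in all 4 bigenic mice, while the second bigenic mouse is redder than its neighbours in genes such as Vamp2, Vamp1, Rims4 and Cplx1.

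Among the 6 SNARE genes of synaptic vesicle fusion, 2 fell (Stx1a and Snap25) and 1 rose (Snap47), and the median log2(fold change) was −0.29. The share passing was 50%, against 35.9% of all genes tested. Without the second bigenic mouse 4 fell, Vamp1 and Vamp2 being added, and the median was −0.48, while 45.6% of all genes then passed.

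Stx1a encodes syntaxin-1A, the plasma membrane SNARE of neuronal exocytosis (mm9, chr5:135499352-135526970, plus strand). Its normalized counts were 2433, 4078, 3192 and 3204 in bigenic mice and 5385, 5204, 5772 and 6220 in nontransgenic mice. Every bigenic mouse was below every nontransgenic mouse, and the highest of them was the second. As log2(fold change) the difference was −0.83 ± 0.14 (SE; limma adjusted p = 0.0017), and −0.95 without the second bigenic mouse.

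Snap25, the other plasma membrane SNARE of the bundle, had the highest level per kilobase of transcript of all 76 genes with a length (mean 25745 normalized counts per kilobase in nontransgenic mice). It was measured at 38492, 53348, 39220 and 38028 in bigenic mice and 56620, 50441, 55394 and 55451 in nontransgenic mice. Only the second bigenic mouse reached the nontransgenic range; the other 3 were far under it. On the log2 scale the difference was −0.38 ± 0.11 (limma adjusted p = 0.023). This call rests on few mice: it passed in 2 of the 8 fits that each left out a mouse, being lost (adjusted p of 0.0535 to 0.0644 in limma) without the first, the third or the fourth mouse of either genotype, whereas without the second bigenic mouse it was −0.50 (adjusted p = 6.9e-05).

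Vamp2, synaptobrevin-2 of the vesicle membrane, was 8025, 14005, 7261 and 7074 in bigenic mice and 10588, 10516, 10991 and 12057 in nontransgenic mice. The second bigenic mouse was the highest of all 8 and the other bigenic mice were the 3 lowest. With all mice the log2(fold change) was −0.34 ± 0.19 (limma adjusted p = 0.19), and without the second bigenic mouse it was −0.57 (adjusted p = 1.0e-04). Vamp1, synaptobrevin-1, had the same layout, at 2353 in the second bigenic mouse, 1217 to 1298 in the other bigenic mice and 1611 to 1859 in nontransgenic mice.

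Snap47, counted in this role as a SNAP-25 relative although it is found on several neuronal membranes, moved the other way. Bigenic mice had 9489, 10289, 8827 and 8922 and nontransgenic mice 7618, 7264, 7977 and 7898. The groups did not overlap, and the log2(fold change) was 0.29 ± 0.07 (limma adjusted p = 0.014). Without the second nontransgenic mouse it was 0.26 (adjusted p = 0.051), and Snap47 exons overlap those of Jmjd4 on the opposite strand, while the authors' counting is not stated to use strand.

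**Figure D2:**
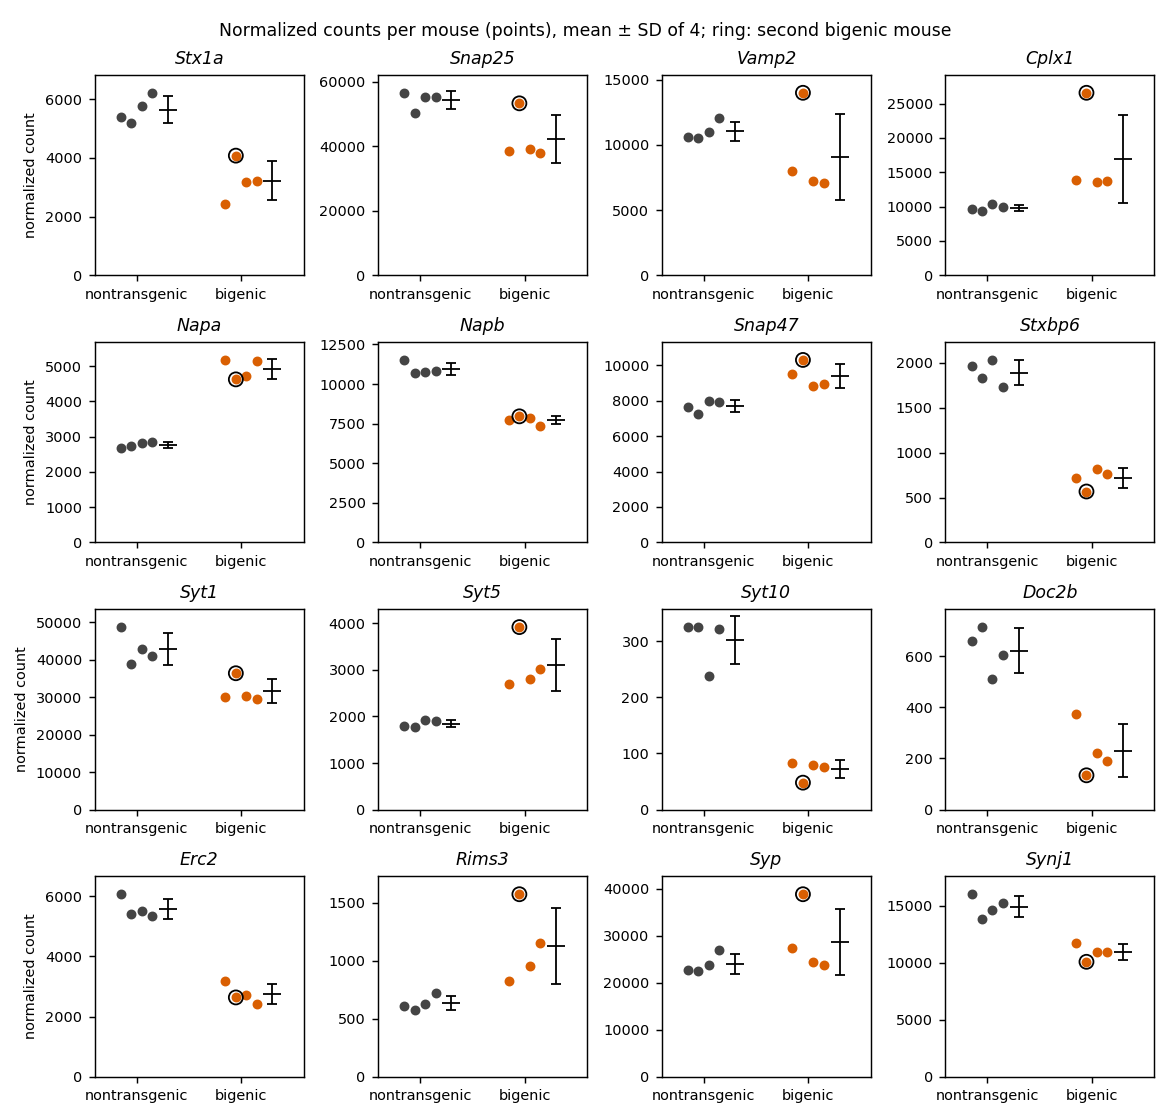
Normalized counts of 16 release genes in each mouse (points), with mean ± SD of 4 mice per genotype beside them; each vertical axis starts at 0 and the ring marks the second bigenic mouse. Stx1a, Napb, Stxbp6, Syt10, Doc2b and Erc2 separate the genotypes downward and Napa, Syt5 and Cplx1 upward, and for Snap25 and Vamp2 only the ringed mouse lies at or above the nontransgenic range.

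Among the 16 genes of SNARE binding, priming and disassembly, 6 fell (among them Stxbp6, Unc13c, Cadps2, Stxbp3a and Napb) and 3 rose (Napa, Cplx1 and Stxbp5). Of these 16 genes 56.25% passed, against 35.9% of all genes tested, and the median log2(fold change) was −0.14. The other 7 (Cplx2, Unc13b, Stxbp5l, Stxbp4, Nsf, Stxbp2 and Cadps) lay between −0.25 and 0.21. Leaving out the second bigenic mouse added Cplx2 to the genes that fell and lost none, while 45.6% of all genes then passed.

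The adaptors that recruit NSF to spent SNARE bundles moved in opposite directions. Napa, α-SNAP (mm9, chr7:16683807-16703324, plus strand), was at 5173, 4622, 4731 and 5138 in bigenic mice and at 2682, 2721, 2820 and 2839 in nontransgenic mice. Napb, the neuronal β-SNAP (mm9, chr2:148519721-148558203, minus strand), was at 7730, 7962, 7835 and 7366 against 11523, 10673, 10784 and 10821. Neither pair of ranges overlapped, and the mice of each genotype lay close together, the second bigenic mouse included. The log2(fold change) was 0.83 ± 0.07 for Napa (limma adjusted p = 4.1e-05) and −0.50 ± 0.06 for Napb (adjusted p = 3.8e-04), and both calls held in all 8 fits with a mouse left out. Nsf itself, the ATPase that both adaptors serve, was between 17157 and 18397 in bigenic mice and between 17771 and 20040 in nontransgenic mice, and the log2(fold change) was −0.08 ± 0.07 (limma adjusted p = 0.37).

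Promoter sequence was available for 59 of the 77 genes, in 75 windows from 250 bases before to 50 bases after a transcription start (RefSeq, GRCm38.p6, a different build from the mm9 of the counts). They were searched on both strands for the cAMP response element TGACGTCA, bound by CREB, and for TCAGCACC, a part of the RE1 element bound by the neuronal repressor REST. The cAMP response element was in 3 of the 75 windows (4.00%), against 1.79% of all 32851 promoters and 3.20% of those of genes tested. The RE1 part was in 2 (2.67%), against 1.65% and 1.74%. The 3 windows with a match are printed 5′ to 3′ with the matched letters in capitals, since they belong to genes with different outcomes in bigenic mice: Napa rose, whereas Syn1 and Sh3gl2 did not pass the test. The cAMP response element starts 7 bases before the start site in Napa (chr7:16098330-16098629, plus strand), 37 before it in Sh3gl2 (chr4:85205206-85205505, plus strand) and 159 before it in Syn1 (chrX:20920869-20921168, minus strand). In Napa the RE1 part is on the reverse strand and so reads GGTGCTGA. A match in these letters is a description, not a binding site.
Napa promoter: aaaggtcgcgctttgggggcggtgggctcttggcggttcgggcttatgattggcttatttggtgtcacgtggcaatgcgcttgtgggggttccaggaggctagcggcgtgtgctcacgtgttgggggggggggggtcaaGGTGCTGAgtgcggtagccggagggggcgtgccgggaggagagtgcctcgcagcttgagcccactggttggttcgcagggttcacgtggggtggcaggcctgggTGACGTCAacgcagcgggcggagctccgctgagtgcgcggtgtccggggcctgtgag
Sh3gl2 promoter: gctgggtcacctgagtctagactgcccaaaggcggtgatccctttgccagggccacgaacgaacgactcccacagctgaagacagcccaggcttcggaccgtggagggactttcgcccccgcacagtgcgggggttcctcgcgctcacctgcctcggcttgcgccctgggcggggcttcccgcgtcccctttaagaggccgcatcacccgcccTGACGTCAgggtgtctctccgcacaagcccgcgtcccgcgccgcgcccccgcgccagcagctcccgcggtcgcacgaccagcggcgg
Syn1 promoter: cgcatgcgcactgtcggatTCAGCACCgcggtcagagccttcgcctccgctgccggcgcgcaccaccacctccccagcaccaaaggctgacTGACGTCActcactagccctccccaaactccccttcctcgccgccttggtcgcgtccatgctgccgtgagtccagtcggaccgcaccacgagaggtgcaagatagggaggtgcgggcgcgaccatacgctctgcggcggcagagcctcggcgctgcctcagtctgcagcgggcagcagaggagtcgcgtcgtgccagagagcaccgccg

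Stxbp6 (amisyn, a syntaxin-binding inhibitor of SNARE assembly; mm9, chr12:45953475-46175480, minus strand) had 719, 567, 819 and 764 in bigenic mice and 1969, 1825, 2031 and 1726 in nontransgenic mice. The highest bigenic value was under 50% of the lowest nontransgenic one. At −1.41 ± 0.12 on the log2 scale it had the smallest adjusted p of the 77 genes (limma, 4.0e-05). Stxbp5, tomosyn, another syntaxin-binding inhibitor, rose by 26.7%, from 3936 to 4439 in nontransgenic mice to 5101 to 5470 in bigenic mice.

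The complexins are small proteins that clamp and then assist the SNARE bundle. Cplx2 was 20317, 25078, 17700 and 16899 in bigenic mice and 24134, 23334, 23043 and 23676 in nontransgenic mice. Here too the second bigenic mouse was the highest of all 8 and the other 3 bigenic mice were the lowest. As log2(fold change) the difference was −0.25 ± 0.11 (limma adjusted p = 0.11), or −0.37 (adjusted p = 0.0013) without that mouse. Cplx1 was named after its values were seen: it was 13861, 26585, 13607 and 13667 in bigenic mice and 9663, 9316, 10423 and 9953 in nontransgenic mice. All bigenic mice were above the nontransgenic range, the second by far the most. Its log2(fold change) was 0.72 ± 0.20 (limma adjusted p = 0.018) with all mice, 0.48 (adjusted p = 8.0e-05) without the second bigenic mouse and 0.69 (adjusted p = 0.051) without the second nontransgenic mouse.

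Of the priming factors, Unc13c (Munc13-3) fell by 49.1% and Cadps2 (CAPS-2, of dense-core vesicle priming) by 39.2%, with limma adjusted p of 6.5e-04 and 5.6e-04. Unc13b (Munc13-2), at 1727 to 1934 in bigenic mice and 1983 to 2259 in nontransgenic mice, did not overlap but did not pass, and the log2(fold change) was −0.17 ± 0.08 (adjusted p = 0.11). Cadps was at 11077 in the second bigenic mouse and at 6307 to 7041 in the other bigenic mice, which lay around the nontransgenic range of 6426 to 6925. Stxbp3a, a syntaxin-binding protein of non-neuronal fusion, was lower by 29.8%. However, 21.5% of the 50-base windows of its transcript also occur in protein-coding transcripts of other genes. The call was also lost without the first, the second or the third nontransgenic mouse (limma adjusted p of 0.052 to 0.0764).

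**Figure D3:**
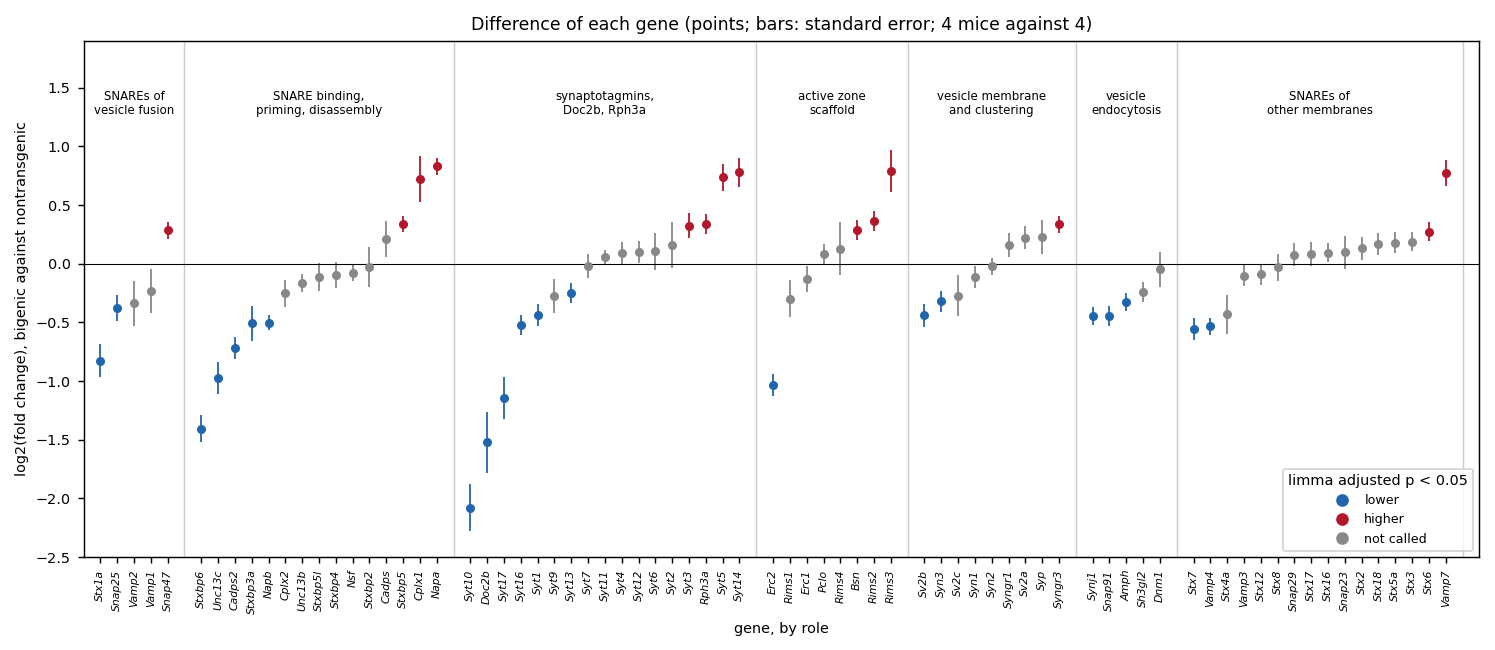
log2(fold change) of 75 of the release genes (points) with its standard error (bars), from limma on 4 bigenic and 4 nontransgenic mice, ordered within each role; blue and red mark genes lower and higher at an adjusted p under 0.05 and grey those that did not pass. Every role except vesicle endocytosis holds genes called in both directions, from −2.08 for Syt10 to 0.83 for Napa. In the fusion SNAREs the only gene called higher is Snap47, a SNAP-25 relative found on several membranes.

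Of the 17 synaptotagmins and related C2 domain calcium sensors, 6 fell (Syt10, Doc2b, Syt17, Syt16, Syt1 and Syt13) and 4 rose (Syt14, Syt5, Rph3a and Syt3), with the same counts without the second bigenic mouse. Their share passing was 58.8%, against 35.9% of all genes tested (45.6% without that mouse), and their median log2(fold change) was 0.06. The 7 that did not pass (Syt9, Syt7, Syt11, Syt4, Syt12, Syt6 and Syt2) lay between −0.28 and 0.16.

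Syt1, the fast calcium sensor of synchronous release (mm9, chr10:107934706-108448038, minus strand), had the highest level per kilobase in this group, 8888 in nontransgenic mice on average. Normalized counts were 29951, 36369, 30395 and 29563 in bigenic mice and 48680, 38951, 42797 and 40923 in nontransgenic mice. All bigenic mice were lower, the second least so. On the log2 scale the difference was −0.44 ± 0.09 (limma adjusted p = 0.0058) and the call held in all 8 fits with a mouse left out. Syt11, which does not bind calcium, was 19160, 19485, 20319 and 19469 in bigenic mice and 19068, 18809, 19615 and 18012 in nontransgenic mice. These overlapped, and the log2(fold change) was 0.06 ± 0.06 (limma adjusted p = 0.50).

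Syt10 (mm9, chr15:89612824-89672291, minus strand), a sensor of growth factor secretion in some neurons, changed most of the 77 genes. Counts of 83, 48, 80 and 76 in bigenic mice stood against 325, 325, 238 and 321 in nontransgenic mice. The groups were widely separated, the second bigenic mouse being the lowest of all. The log2(fold change) was −2.08 ± 0.20 (limma adjusted p = 8.4e-05), and −1.90 without that mouse. Syt10 is a low gene: its mean level per kilobase in nontransgenic mice was 164, so its values rest on far fewer reads than those of Syt1. It reached the 10 RPM needed for testing only in nontransgenic mice. A gene as low as this in both genotypes would not have been tested, so its rank as the largest change depends partly on that filter.

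Doc2b, a high-affinity sensor tied to spontaneous and asynchronous release, was named after its values were seen. It had 375, 134, 220 and 189 in bigenic mice and 660, 713, 509 and 603 in nontransgenic mice, which do not overlap although the bigenic mice spread widely. Its log2(fold change) was −1.52 ± 0.26 (limma adjusted p = 0.0020). Syt17 and Syt16, both atypical synaptotagmins, fell by 54.8% and 30.5% (adjusted p = 0.0012 and 0.0016). Syt13 passed narrowly (log2(fold change) −0.25, limma adjusted p = 0.043) and was called in 1 of the 8 fits with a mouse left out, the fit without the second bigenic mouse (limma adjusted p of 0.0511 to 0.105 in the others).

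Of the genes that rose, Syt5 was 2695, 3919, 2813 and 3021 in bigenic mice against 1790, 1771, 1927 and 1899 in nontransgenic mice. Syt14, at much lower counts, was 304, 389, 311 and 325 against 190, 193, 171 and 219. Both sets were separate, and in both the second bigenic mouse was the highest. Their log2(fold change) was 0.74 ± 0.11 and 0.78 ± 0.12 (limma adjusted p = 0.0011 for each). Rph3a, rabphilin, a Rab3 effector on vesicles, rose by 26.7% (adjusted p = 0.012). Syt3 was higher by 25.1% (adjusted p = 0.039) although the groups overlapped, and its call was lost without the third or the fourth bigenic mouse or the first, the second or the third nontransgenic mouse (limma adjusted p of 0.0858 to 0.106).

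Among the 8 active zone scaffold genes, Erc2 fell and Rims3, Rims2 and Bsn rose, and the median log2(fold change) was 0.10. The share passing was 50%, against 35.9% of all genes tested. Without the second bigenic mouse Rims1 and Erc1 also fell, the same 3 rose and the median was −0.02, while 45.6% of all genes then passed. Rims4 (0.13) and Pclo (0.08) passed in neither fit.

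Erc2 encodes CAST, a scaffold that binds RIM and bassoon (mm9, chr14:28435614-29291721, plus strand). Bigenic mice had 3194, 2635, 2723 and 2414 and nontransgenic mice 6063, 5407, 5519 and 5331. The ranges were far apart, and the second bigenic mouse lay among the others. As log2(fold change) the difference was −1.03 ± 0.09 (limma adjusted p = 6.4e-05), and the largest adjusted p with a mouse left out was 5.4e-04. Erc1 (ELKS), its paralogue, was at 2666 in the second bigenic mouse, 1886 to 1954 in the other bigenic mice and 2161 to 2390 in nontransgenic mice.

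RIM proteins tether vesicles and calcium channels. Rims3, a short form without the vesicle-binding domain, was 821, 1572, 957 and 1153 in bigenic mice against 609, 578, 623 and 722. Rims2 was 3028, 3787, 3084 and 3157 against 2590, 2454, 2551 and 2529. In both genes every bigenic mouse was higher and the second highest, and the log2(fold change) was 0.79 ± 0.18 and 0.36 ± 0.08 (limma adjusted p = 0.0072 and 0.0087). Rims1 lay the other way in 3 of the 4 bigenic mice, at 3531, 3368 and 3431, under the nontransgenic range of 4376 to 5166, while the second bigenic mouse was at 5662. Its log2(fold change) was −0.30 ± 0.16 (limma adjusted p = 0.16) with all mice and −0.48 (adjusted p = 2.2e-04) without the second.

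Bassoon and piccolo are the giant scaffolds of the active zone. Bsn was 15521, 19159, 16993 and 18865 in bigenic mice and 14380, 13460, 13957 and 15949 in nontransgenic mice, and the first bigenic mouse lay within the nontransgenic range. Its log2(fold change) of 0.29 ± 0.09 passed (limma adjusted p = 0.030) but did not without the fourth bigenic mouse or the first, the second or the third nontransgenic mouse (adjusted p of 0.0708 to 0.0924). Pclo was 11193, 12076, 13327 and 13479 against 12926, 11039, 11130 and 12213, with overlap and no call.

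Of the 9 genes of the vesicle membrane and of vesicle clustering, Sv2b and Syn3 fell and Syngr3 rose, and the median log2(fold change) was −0.02. The share passing was 33.3%, below the 35.9% of all genes tested. The other 6 lay between −0.27 (Sv2c) and 0.23 (Syp). Without the second bigenic mouse Syn1 was added to those that fell, while 45.6% of all genes then passed.

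Syp, synaptophysin, an abundant vesicle membrane protein, was 27326, 38849, 24503 and 23689 in bigenic mice and 22647, 22546, 23861 and 27066 in nontransgenic mice. The second bigenic mouse was far above all others, which overlapped. On the log2 scale the difference was 0.23 ± 0.15 (limma adjusted p = 0.25), or 0.07 without it. Sv2b, a transporter-like vesicle glycoprotein, was 10934, 9521, 12021 and 11709 against 17041, 13933, 15166 and 13811. All bigenic mice were lower, and the log2(fold change) was −0.44 ± 0.10 (limma adjusted p = 0.0070). Its relative Sv2a, the target of levetiracetam, was 8374 to 11110 in bigenic and 7557 to 7995 in nontransgenic mice and did not pass (0.22 ± 0.10, limma adjusted p = 0.096).

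Syn3, the synapsin of developing neurons, was 1086, 864, 1017 and 992 against 1347, 1178, 1200 and 1208. The groups were separate, at −0.32 ± 0.09 on the log2 scale (limma adjusted p = 0.020), and the call was lost without the first nontransgenic mouse (−0.28, adjusted p = 0.0635). Syngr3, synaptogyrin-3, was 3016, 2868, 2836 and 3098 against 2429, 2419, 2363 and 2154. All bigenic mice were higher, and the log2(fold change) was 0.34 ± 0.07 (limma adjusted p = 0.0057). Syn1 and Syn2, the synapsins of mature terminals, had a log2(fold change) of −0.11 ± 0.09 and −0.02 ± 0.07. Sv2b, Syn1, Syn3 and Syp, like Bsn, Doc2b and Synj1, each share exon sequence with a gene on the opposite strand, whose reads cannot be told apart from theirs without strand.

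Of the 5 genes of vesicle endocytosis, Synj1, Snap91 and Amph fell and none rose, and the median log2(fold change) was −0.33. The share passing was 60%, against 35.9% of all genes tested. Dnm1 also fell once the second bigenic mouse was left out, and the median was then −0.36, while 45.6% of all genes passed. Synj1, synaptojanin-1, which strips the clathrin coat, was 11766, 10084, 10970 and 10906 in bigenic mice and 16010, 13840, 14591 and 15215 in nontransgenic mice. Snap91 (AP180), which assembles that coat, was 5520, 4996, 6335 and 5950 against 8197, 7483, 8004 and 7315. Amph, amphiphysin, which recruits dynamin, was 4178, 4368, 3981 and 3914 against 5539, 4802, 4853 and 5451. In all 3 genes the genotypes were separate, and the log2(fold change) was −0.45 ± 0.08, −0.45 ± 0.09 and −0.33 ± 0.08 (limma adjusted p = 0.0017, 0.0036 and 0.0095).

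Dnm1, dynamin-1, which cuts the vesicle free, was 20186, 34628, 21866 and 22939 in bigenic mice and 26042, 22989, 24917 and 26918 in nontransgenic mice. The second bigenic mouse was the highest of the 8 and the other 3 the lowest. Its log2(fold change) was −0.05 ± 0.15 (limma adjusted p = 0.82), and −0.22 (adjusted p = 0.025) without that mouse. Sh3gl2, endophilin A1, was separate between the genotypes (4486 to 5418 against 5547 to 6490) and lay just outside the threshold, at −0.24 ± 0.09 (limma adjusted p = 0.055).

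Among the 16 SNARE genes of other membranes (endosome, Golgi, endoplasmic reticulum and plasma membrane), 4 passed, a smaller share than the 35.9% of all genes tested: Stx7 and Vamp4 fell and Vamp7 and Stx6 rose. The median log2(fold change) was 0.09, and the other 12 lay between −0.43 (Stx4a) and 0.19 (Stx3). Without the second bigenic mouse Stx4a, at 525, 567 and 569 in the remaining bigenic mice and 746 to 948 in nontransgenic mice, also fell, though its exons overlap those of a gene on the opposite strand.

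Stx7, of late endosomes, was 2054, 1793, 2206 and 2120 in bigenic mice and 3347, 2907, 3013 and 2738 in nontransgenic mice. Vamp4, of the Golgi and of bulk endocytosis, was 1138, 1015, 991 and 978 against 1514, 1517, 1509 and 1425. Both were separate, at −0.55 ± 0.09 and −0.53 ± 0.08 (limma adjusted p = 0.0016 and 6.8e-04). Vamp7, the tetanus-insensitive Vamp of late endosomes and spontaneous release, was 1211, 910, 1209 and 1087 against 689, 622, 688 and 574. All bigenic mice were higher, and the log2(fold change) was 0.77 ± 0.11 (limma adjusted p = 7.2e-04). Stx12, an endosomal syntaxin, was 3056, 2502, 3164 and 2965 against 3272, 2937, 3211 and 2998, with overlap and no call. Stx6 (0.27 ± 0.08, adjusted p = 0.024) lost its call without the first or second nontransgenic mouse (limma adjusted p = 0.067 and 0.0732).

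**Figure D4:**
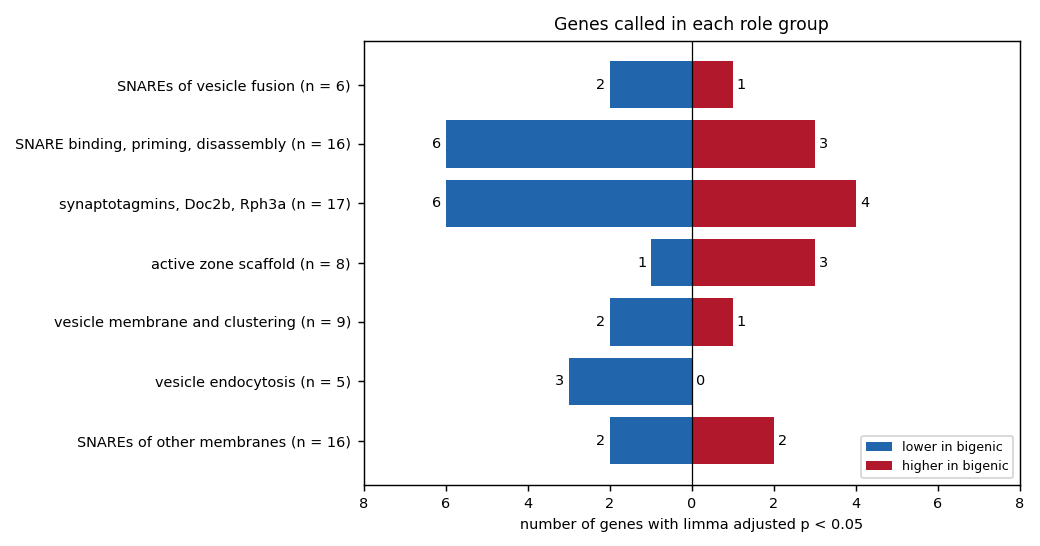
Number of genes in each role with a limma adjusted p under 0.05, lower in bigenic mice to the left and higher to the right. SNARE binding, priming and disassembly (16 genes) and the synaptotagmin group (17 genes) have 6 lower in each. Vesicle endocytosis (5 genes) has 3 lower and none higher. The shares called were 56.25%, 58.8% and 60% in that order, against 35.9% of all genes tested. The fusion SNAREs and the active zone had 50% each, vesicle membrane genes 33.3% and other-membrane SNAREs 25%.

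Paralogues were also compared inside each mouse, which removes any scaling of that mouse. In the 15 gene families with at least 2 members, the ratio of the counts of the 2 members of highest mean count was taken. These ratios are not corrected for transcript length, their choice followed sight of the data, and they are given without a test. In 10 of the 15 the ratios of bigenic and nontransgenic mice did not overlap, and in 13 without the second bigenic mouse. The share of other gene pairs that separate was not computed, and since 39.0% of single genes tested already did (48.6% without that mouse), nothing particular to these families is read from the count. Napa over Napb moved most, from between 0.233 and 0.262 in nontransgenic mice to between 0.581 and 0.698 in bigenic mice. Cplx1 over Cplx2 went from between 0.399 and 0.452 to between 0.682 and 1.06.

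The same held for scaffolds and calcium sensors. Erc1 over Erc2 was 0.394 to 0.448 in nontransgenic and 0.590 to 1.01 in bigenic mice, and Rims1 over Rims2 was 1.69 to 2.04 and 1.09 to 1.5. Syt1 over Syt11 was 2.07 to 2.55 and 1.5 to 1.87 in the same order. Snap25 over Snap47, Sv2a over Sv2b, Cadps over Cadps2 and Unc13b over Unc13c were also separate. For Snap25 over Snap47 the second bigenic mouse was at 5.18, against 6.94 to 7.43 in nontransgenic mice, while its Snap25 count alone lay inside the nontransgenic range. Overlap remained for Bsn over Pclo and Vamp1 over Vamp2 with and without that mouse, and for Syn1 over Syn2 and Syngr1 over Syngr3 with it.

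The second bigenic mouse, with the fewest reads, was the highest of the 4 bigenic mice in 39 of the 77 genes (50.6%, against 43.1% of all genes tested) and the lowest in 23 (29.9%, against 38.5%). The summed count of the 77 genes was 436991, 539152, 448865 and 447931 in bigenic mice and 522039, 476310, 501970 and 507565 in nontransgenic mice. In percent of each mouse's total this is 2.17, 2.45, 2.16 and 2.16 against 2.47, 2.33, 2.39 and 2.42. Thus 3 bigenic mice gave less of their counts to release genes than any nontransgenic mouse, and the second bigenic mouse did not.

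Its distance from the other bigenic mice went with base composition: over 76 genes, the Spearman correlation between GC content of the transcript and the log2 distance was 0.40, and over 10201 genes 0.42, whereas with transcript length it was 0.02 and −0.03. Genes share these libraries, so the correlations are a description. The part of GC content and depth in the results was not tested beyond a correction of each mouse for a curved dependence on both GC content and length, chosen after the data were seen. That gave 25 genes lower and 12 higher, or 32 and 13 without the second bigenic mouse. Before the correction, 35.9% of all genes tested passed, and 45.6% without that mouse. The share after the correction is not given here, so nothing particular to release genes is read from these counts.

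**Figure D5:**
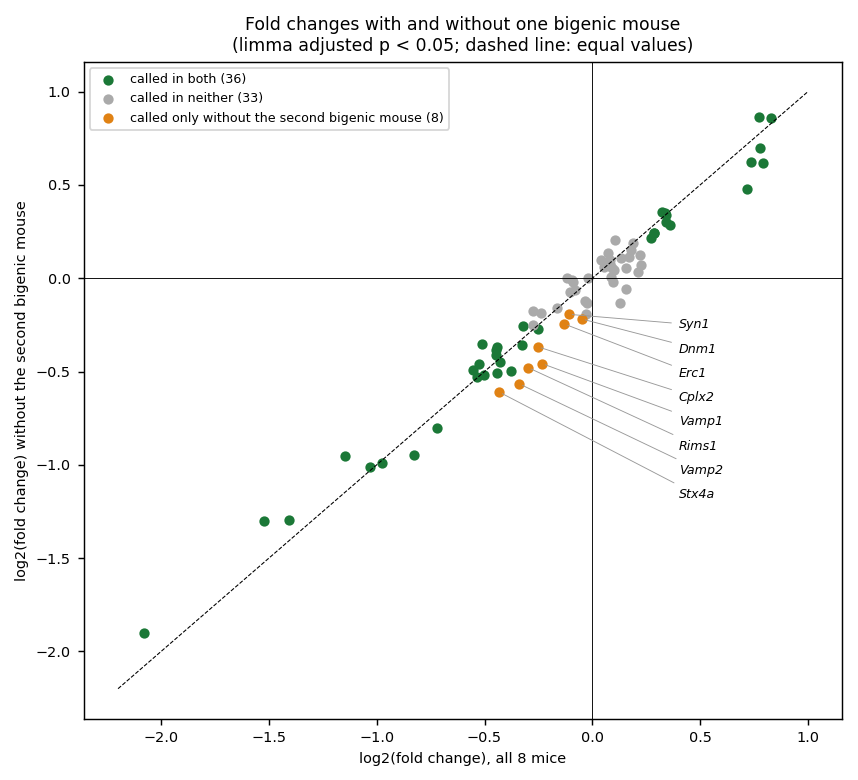
log2(fold change) of the 77 genes with all 8 mice (horizontal axis) and without the second bigenic mouse (vertical axis); the dashed line marks equal values. The 8 labelled genes, all below the line, pass a limma adjusted p of 0.05 only without that mouse, while 36 pass in both fits and 33 in neither.

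Other presynaptic genes were read from the same fit, in which 35.9% of all genes tested passed (15.4% lower and 20.5% higher). Of 34 further genes of release and the active zone, 14 fell and 5 rose, and the median log2(fold change) was −0.16. Synpr, synaptoporin, a synaptophysin relative, was among the 2 with the smallest p, at 1680, 1135, 1594 and 1413 in bigenic mice and 3032, 3171, 2769 and 2571 in nontransgenic mice, without overlap (log2(fold change) −1.0, limma adjusted p = 3.9e-04). Of 17 genes that load vesicles with transmitter, 9 fell and 2 rose, with a median of −0.26. Slc17a6, the vesicular glutamate transporter more typical of subcortical neurons, had −1.29 (limma adjusted p = 8.9e-05) and Atp6v1g2, a neuronal proton pump subunit, −0.77 (adjusted p = 2.0e-04).

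Of 26 clathrin endocytosis genes outside the 77, 4 fell and none rose, a smaller share than the 35.9% of all genes tested, with a median of −0.01. Of these, Picalm, the widely expressed relative of Snap91, was at −0.38 on the log2(fold change) scale (limma adjusted p = 0.011), and Ap2m1, a clathrin adaptor subunit, −1.15 (adjusted p = 0.014), with 444, 347, 881 and 899 in bigenic mice and 1564, 1244, 1473 and 1042 in nontransgenic mice. The bigenic values of Ap2m1 were all lower but spread widely. With the second bigenic mouse left out, 17 genes of the release list fell and 5 rose, 11 of the loading list fell and 2 rose, and 7 of the clathrin list fell and 2 rose. In that fit 45.6% of all genes passed (20.3% lower and 25.3% higher).

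Cell type markers also moved between the genotypes, and their part in the release gene results was not tested. Their counts stand beside the 35.9% of all genes tested that passed. Of 11 glutamatergic neuron markers 2 fell and 1 rose, and their summed count was 47946 to 67927 in bigenic mice and 76895 to 84201 in nontransgenic mice. The largest part of that sum is Camk2a, the kinase gene whose promoter drives the transactivator, at 22112 to 30548 against 44895 to 49794. With Camk2a left out, the sums of the remaining glutamatergic markers overlap between the genotypes. Of 13 general neuron markers tested 3 fell and 4 rose, with sums of 113630 to 156158 and 124457 to 140772, which overlap. Of 12 inhibitory neuron markers 5 fell and 1 rose (24417 to 26442 against 28117 to 30322).

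Astrocyte markers (5 of 11 lower, none higher) summed to 140737 to 167200 against 177559 to 192898, and microglia markers (5 of 9 lower, none higher) to 5268 to 6873 against 7057 to 8321. Of 10 oligodendrocyte markers 1 rose, and of 7 endothelial markers 1 fell, with overlapping sums in each list (72111 to 92014 against 70256 to 88352, and 4431 to 4950 against 4637 to 5916). Choroid plexus markers were higher, with 5 of 6 tested passing and 8 of the 14 listed below the filter. However, Clic6, Kl, Prlr and F5 reached the 10 RPM of the filter only in bigenic mice. They were thus tested only because they were high there, and the count of markers passing was largely set by the filter. Ttr, transthyretin, and Enpp2 reached 10 RPM in each genotype, and of these Ttr passed and Enpp2 did not. The 6 markers summed to 14275 to 29482 in bigenic mice and 6591 to 8221 in nontransgenic mice, with Ttr at 7741 to 18520 against 236 to 1023. None of the 6 was at 0 in any mouse.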

How the data were processed

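After adaptor trimming (cutadapt), the authors aligned reads to mm9 with Bowtie 0.12.7, discarded reads with several alignments, and used bedtools to count reads per exon and add them up per gene. The deposited table gives a signal per transcript and mouse, whole numbers that are not raw counts, because their steps differ between columns as after division by a size factor and rounding. How they were scaled is not given in the sources used here. The step of each column was estimated by maximum likelihood (8 of 8 simulated steps recovered), and count tests were not run. The authors' results table supplied symbols only, and its fold changes and p-values were not used.

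A gene was tested if any mouse reached 10 RPM of that column's total (10588 genes). Genotypes were compared on log2(value + 1), which understates the change of low genes, with limma 3.58.1 (lmFit, eBayes with a trend) in R 4.3.3 and Benjamini-Hochberg adjustment over all genes at 0.05. Tested on simulated data for this comparison, the fit called 179 of 200 changed genes and 14 unchanged genes. These values were drawn independently for each gene, with no mouse set apart in many genes at once. The simulation therefore gives no error rate for the real data. The mice are separate animals. Python 3.11.15 with pandas 2.3.3, numpy 2.4.6 and matplotlib 3.10.9 was used.

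The genes, role groups and lists were chosen with earlier results of these data known. Values in every mouse are given, per role, for the 3 genes with the smallest p and the 2 with the highest mean count, and from each list of other presynaptic genes the 2 with the smallest p are named. Genes given beyond this rule were chosen after their values were seen. A few genes that entered the counts are not reported here by name. Positions and overlaps come from GENCODE M1 (76 of 77 genes; Vamp7 had no match). The alternatives were pseudocounts of 10 and 0.1, no filter, a filter in every mouse, rescaling to the same total, quantile normalization, array weights, an adjusted p under 0.01, a change of at least 1.5-fold and each mouse left out. Correction for GC content and length, quantile normalization without the second bigenic mouse and the ratios of paralogues were added after seeing the data.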

Additional observations from a re-analysis of the deposited data

Results flagged for a closer look

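Each gene's 4 values per genotype were examined for a mouse whose gap to the nearest other, as a share of the whole range of the group, exceeded Dixon's critical value for 4 samples. Of 154 groups 21 exceeded it, whereas 1 in 20 would be 7.7. In 15 of the 21 the mouse was the second bigenic mouse at the high end: Cplx1 (0.98), Rims4 (0.946), Vamp1 (0.929), Rims1 (0.929), Snap25 (0.922), Syt2 (0.919), Erc1 (0.913), Snap23 (0.886), Stx4a (0.885), Syt7 (0.88), Syt1 (0.878), Sv2a (0.868), Vamp2 (0.863), Cadps (0.846) and Rims2 (0.83). It was at the low end for Syn2 (0.984).

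The first bigenic mouse was the low one for Syt13 (0.871) and Stx5a (0.83). Among nontransgenic mice, the third was low for Syt10 (0.954), at 238 against 321 to 325, and the fourth for Vamp4 (0.913) and Stx17 (0.907). The genes are not independent of each other, since all share the same 8 libraries.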

How the results depend on the processing

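No paired analysis was possible because the columns of the deposited table carry no replicate number. Depth limits the low genes most: 3 reads of the second bigenic mouse are worth 6.20 normalized counts, against a lowest value of 48 (Syt10). Of the 77 log2(fold change) values, none changed sign past the threshold except Nsf, at 0.12 (limma adjusted p = 0.049) with quantile normalization without the second bigenic mouse. The pseudocounts changed no call among the 77.

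With a change of at least 1.5-fold, 8 genes were lower and 6 higher (1314 of all genes), and at an adjusted p under 0.01, 18 were lower and 8 higher (2057 of all genes). Array weights called 6455 of all genes and 32 release genes lower and 21 higher. They gave 4 fusion SNAREs lower, 3 active zone genes lower, 2 vesicle membrane genes higher and 7 other-membrane SNAREs higher, and in the lists 9 clathrin genes lower and 5 higher, 7 neuron and 2 inhibitory neuron markers higher, and 8 microglia, 2 oligodendrocyte and 2 endothelial markers lower. Quantile normalization gave 3 vesicle membrane genes, 1 clathrin gene and 2 glutamatergic markers higher and 3 astrocyte markers lower, the last also after rescaling to the same total. The count of all genes called with quantile normalization or rescaling is not given here, so nothing particular to these lists is read from it.

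With each mouse left out in turn, 18 to 30 release genes were lower and 9 to 15 higher, and 2654 to 4782 of all genes were called. By role, lower and higher calls were 1 to 4 and 0 to 1 for fusion SNAREs, 2 to 3 and 1 to 3 for other-membrane SNAREs, 1 to 3 and 2 to 3 for the active zone, and 1 to 3 and 1 to 1 for vesicle membrane genes. In the lists they were 9 to 17 and 2 to 5 for release, 5 to 11 and 1 to 2 for transmitter loading, and 2 to 7 and 0 to 2 for clathrin endocytosis. For markers they were 2 to 5 and 1 to 6 (neuron), 3 to 5 and 0 to 2 (inhibitory neuron), 3 to 6 lower (astrocyte), 0 to 1 lower (endothelial), 0 to 2 higher (oligodendrocyte) and 2 to 6 higher (choroid plexus). The high end for lower calls was mostly the fit without the second bigenic mouse. The cause of these shifts was not tested.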
